A study of Mus musculus with 4 samples.

Results

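The enzymes that oxidise and conjugate foreign chemicals were followed in CD8 T cells of the mouse spleen. They are the genes whose symbol in the array's annotation begins with Cyp, Aldh, Gst, Ugt or Sult followed by a family number, or by a class letter and a number in the case of Gst. Of the 12393 genes that the array measured with a probe set of a single gene, 118 met this rule: 63 cytochrome P450 (Cyp), 17 aldehyde dehydrogenase (Aldh), 18 glutathione S-transferase (Gst), 9 UDP-glucuronosyltransferase (Ugt) and 11 sulfotransferase (Sult) genes. Where a gene had several probe sets, the one brightest on average across the 4 arrays stands for it. The labels give 2 groups of female C57BL/6 mice, aged 8 to 12 weeks and with no named genetic change. One received TCDD intraperitoneally at 10 µg/kg and the other DMSO, the solvent, and both were killed after 24 h. Splenic CD8 T cells, sorted by FACS to a purity above 99%, were taken from 4 mice pooled for each group, and their amplified RNA was put on 2 arrays per group, numbered 1 and 2. Whether a group's arrays were made from independent pools is not stated, so every p-value reflects array-to-array spread that could be purely technical.

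TCDD, a persistent dioxin, binds the aryl hydrocarbon receptor (AHR). The bound receptor enters the nucleus, pairs with ARNT and binds DNA with the core letters GCGTG, and in liver and many other tissues the CYP1 enzymes, Nqo1, Aldh3a1 and some Ugt1a and Gst genes are its classical targets. Phase I enzymes such as the P450s and aldehyde dehydrogenases introduce or oxidise a reactive group, and phase II enzymes attach glutathione, glucuronic acid or sulfate to it. Many members of these families have other work, such as making sterols, steroid hormones, retinoic acid or proline.

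Values are log2 expression per probe set, and a difference is the mean of the TCDD arrays minus that of the DMSO arrays on this scale. Probe sets differ in how brightly they report a transcript, so levels are compared only between arrays. The median of all probe set means, 6.01, serves as a mark of brighter signal, since values below it do not separate weak expression from none. Above that mark lay 28 of the 118 enzyme genes (23.7%), against 59.6% of all genes: 12 Cyp, 10 Gst, 6 Aldh and 0 of the Ugt and Sult genes. All 9 measured markers of CD8 T cells, among them Cd8a, Cd8b1 and Cd3e, were above it in every array. They measured lower with TCDD for 7 of the 9 (median difference -0.265), and both TCDD arrays were below both DMSO arrays for 3: Cd8a at -0.73, Thy1 at -0.70 and Cd3g at -0.45 (limma adjusted p = 0.9973 each). Among all genes above the median 12.8% had both TCDD arrays lower. The part of this shift of CD8 T cell markers in the enzyme values was not tested. Array medians ran from 5.97 to 6.03. Markers of other cell types also varied between arrays. The mean log2 level of 7 neutrophil genes was 7.11 in DMSO replicate 2 and 5.95 to 6.29 in the other arrays, mostly through S100a8 (8.67 against 5.45 to 5.94) and S100a9 (7.80 against 4.61 to 5.63), while Elane and Mpo were not highest there. The mean log2 level of 5 dendritic cell genes was 5.85 in DMSO replicate 2 and 6.35 to 6.66 elsewhere. All 5 had positive differences between TCDD and DMSO (median 0.31), unlike most CD8 T cell markers. Both TCDD arrays were higher for 3 of them and lower for 0, where 12.9% and 12% of all genes were. Of 8 monocyte and macrophage genes 2 were higher and 0 lower, and of 7 neutrophil genes 0 and 1. The part of these cells in the enzyme values was not tested. The liver genes Alb, Apoa1 and Apob were below the mark in every array, while Ttr measured 7.15 to 7.39. A value above the mark therefore does not by itself show expression in CD8 T cells.

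No enzyme gene was called between TCDD and DMSO. The limma test, adjusted over 22626 probe sets by the Benjamini-Hochberg method, called 0 of the 118 genes at an adjusted p of 0.05 (lowest adjusted p = 0.9973), and 0 probe sets (0%) on the whole array. At an unadjusted p under 0.05 there were 2 enzyme genes, Cyp2s1 and Sult1a1, both higher after TCDD, and 0 lower. Among all genes 2.11% reached this level, 0.823% higher and 1.28% lower. The 95% limits of all 118 genes, each read from its 1 chosen probe set, lay inside a 2-fold change of signal in either direction. The highest upper limit was 1.75-fold, for Aldh2, and the lowest lower limit 0.517-fold, for Aldh18a1. Another bright probe set of Aldh18a1 had log2 limits of -2.50 and -0.07, which reach beyond 2-fold, so the bound depends on the probe set. The limits of the 118 genes are for each gene alone and bound the array signal. A change of transcript may be compressed, for the 90 genes below the median and possibly for brighter ones.

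The median difference over the 118 genes was 0.03, beside 0.01 over all genes, and differences ran from -0.43 to 0.37. Both TCDD arrays exceeded both DMSO arrays for 22 enzyme genes, or 18.6%, where the share of all genes was 12.9%. They lay below for 15, or 12.7%, where the share of all genes was 12%, and the groups overlapped for 81. In either direction this was 31.4%, beside 24.9% of all genes. Among the 28 brighter genes 4 were higher and 4 lower, where 11.1% and 12.8% of all brighter genes were (23.9% in either direction). Among the 90 dimmer ones 18 were higher and 11 lower, where 15.6% and 10.8% of all dimmer genes were (26.4% in either direction). In these sorted but bulk samples fewer cells of a type and less RNA per cell cannot be told apart. Differences were under 0.25 in size for 114 of the 118 (96.6%), and 0 reached 0.5. Among all genes 86.9% were under 0.25 and 2.2% reached 0.5. Much of this narrowness goes with low signal, because 95.6% of all genes below the median were also under 0.25. Among the 28 brighter enzyme genes 25 were under 0.25 (89.3%), beside 80.9% of all brighter genes.

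**Figure D1:**
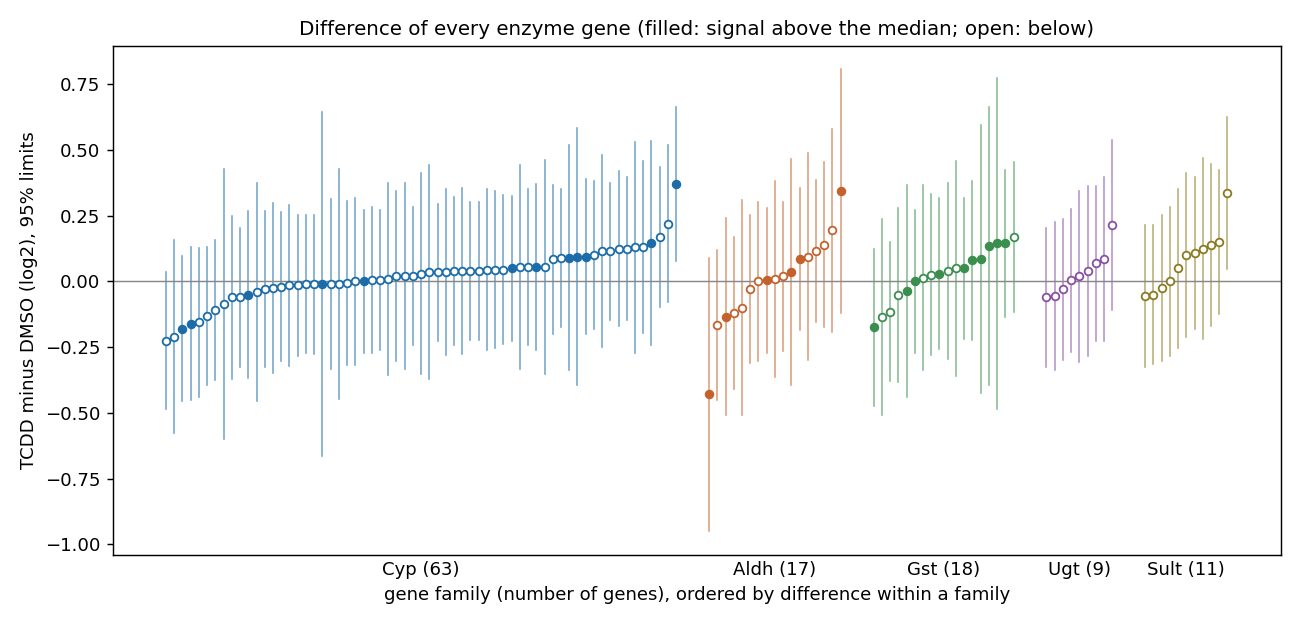
Difference between TCDD and DMSO (log2, vertical axis) for each of the 118 enzyme genes, ordered within the 5 families, with 95% limits from limma as lines and n = 2 arrays per group. Filled points have a mean signal above 6.01. Most points lie within 0.25 of 0, Aldh18a1 is the lowest at -0.43, and only the lines of Cyp2s1 and Sult1a1 leave out 0.

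The CYP1 enzymes, the standard readout of AHR activation, all measured slightly lower after TCDD, and none passed the test. Cyp1a1, which hydroxylates polycyclic aromatic hydrocarbons, was at 6.13 and 6.25 in TCDD replicates 1 and 2 and at 6.33 and 6.15 in the DMSO replicates. Its groups overlapped, its difference of -0.05 was -0.20 within the arrays numbered 1 and 0.10 within those numbered 2, and it changed sign as arrays were left out (-0.14 to 0.04). Cyp1a2, best known from the liver, measured 5.28 and 5.33 with TCDD and 5.44 and 5.39 with DMSO. Both TCDD arrays were lower, by 0.11 in the mean (difference -0.11, 95% limits -0.38 and 0.16). Cyp1b1, the extrahepatic CYP1 enzyme, measured 5.76 and 5.85 against 6.01 and 5.91, again with both TCDD arrays lower. Its difference was -0.155. Its 2 other probe sets differed by -0.085 with overlapping groups and by 0.08 with both TCDD arrays higher. Among all genes below the median signal 10.8% had both TCDD arrays lower. Nqo1, the quinone reductase and a further AHR target outside these families, differed by -0.045. The upper limits for the 3 CYP1 genes were 1.20-fold for Cyp1a1, 1.11-fold for Cyp1a2 and 1.09-fold for Cyp1b1. The mean signals of Cyp1a2 (5.36), Cyp1b1 (5.88) and Nqo1 (4.69) were below the mark of 6.01, and that of Cyp1a1 (6.215) was little above it. The limits therefore bound the array signal, and a larger change of transcript may be compressed.

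This comparison turns on 4 genes: Cyp1a1, Cyp1b1, and the P450 and aldehyde dehydrogenase with the largest positive and negative differences. The sequences just before their transcription starts are shown, to mark the AHR core where these stretches hold it. Each is the 250 bases before the annotated start in RefSeq on build GRCm38.p6, written 5′ to 3′ on the gene's strand, with GCGTG or its reverse complement CACGC in capitals.
Cyp1a1 (chr9:57697363-57697612, plus strand): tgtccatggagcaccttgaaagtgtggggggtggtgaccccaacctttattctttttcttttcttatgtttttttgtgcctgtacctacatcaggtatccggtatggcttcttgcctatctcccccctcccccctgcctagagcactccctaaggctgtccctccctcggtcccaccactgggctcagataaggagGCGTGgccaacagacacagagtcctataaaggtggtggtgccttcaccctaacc
Cyp1b1 (chr17:79715062-79715311, minus strand): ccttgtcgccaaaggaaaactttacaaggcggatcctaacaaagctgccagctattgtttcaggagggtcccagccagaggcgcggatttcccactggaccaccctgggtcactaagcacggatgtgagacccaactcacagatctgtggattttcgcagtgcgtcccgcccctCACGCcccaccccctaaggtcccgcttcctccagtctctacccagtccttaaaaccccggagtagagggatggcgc
Cyp2s1 (chr7:25816526-25816775, minus strand): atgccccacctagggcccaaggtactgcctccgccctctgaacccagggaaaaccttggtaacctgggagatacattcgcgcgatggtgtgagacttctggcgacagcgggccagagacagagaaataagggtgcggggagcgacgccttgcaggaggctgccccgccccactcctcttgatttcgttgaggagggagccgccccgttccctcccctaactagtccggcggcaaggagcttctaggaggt
Aldh18a1 (chr19:40588464-40588713, minus strand): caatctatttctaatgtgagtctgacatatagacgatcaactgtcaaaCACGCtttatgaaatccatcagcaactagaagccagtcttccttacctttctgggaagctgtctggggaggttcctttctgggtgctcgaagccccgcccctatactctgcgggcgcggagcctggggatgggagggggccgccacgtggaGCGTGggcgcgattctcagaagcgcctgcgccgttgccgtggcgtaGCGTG

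The core occurred 1 time in the Cyp1a1 and Cyp1b1 windows, 3 times in that of Aldh18a1 and 0 times in that of Cyp2s1. RefSeq windows were matched for 92 of the 118 enzyme genes, and 25 of these held the core in at least 1 window. Of the 110 windows of enzyme genes 24.5% held it, beside 28.2% of all 32851 windows of the same length, so it was about as frequent here as elsewhere. The 25 genes with the core had a median difference of 0.04, with both TCDD arrays higher for 3 and lower for 2. The 67 without it had a median of 0.02, with 10 higher and 8 lower. Among all genes 12.9% were higher and 12% lower. GCGTG was the only motif searched, on both strands, and a match is a run of letters and not a bound site. Sequence outside the windows was not searched. A window without the core, as for Cyp2s1, therefore does not show that the gene lacks it elsewhere.

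Of the other classical AHR targets in these families, Aldh3a1, an aldehyde dehydrogenase abundant in the cornea, measured 3.44 and 3.57 with TCDD and 3.54 and 3.53 with DMSO, a difference of -0.03. Gsta2, an alpha class transferase, differed by 0.025, at 4.36 and 4.51 against 4.35 and 4.47. Both genes had overlapping groups and values near the low end of the scale in all 4 arrays. The Ugt1a genes share their last exons, and 3 probe sets named 8 of them together, so none could be assigned to a single gene. These probe sets differed by 0.035, 0.06 and -0.245, and only the last, at 4.51 and 4.50 against 4.82 and 4.68, had groups that did not overlap.

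The large CYP2 family, with 31 measured genes, oxidises drugs, steroids and arachidonic acid. Both TCDD arrays were higher for 5 of its genes and lower for 2, and the groups overlapped for 24, where 12.9% and 12% of all genes were higher and lower. Cyp2s1, a P450 of epithelia and other tissues outside the liver that is known to be inducible by dioxin in mice, had the highest difference of the 118 genes. It measured 6.94 in both TCDD arrays and 6.49 and 6.65 in the DMSO replicates, so the TCDD arrays lay above both DMSO arrays. The difference was 0.37, or 1.29-fold, with 95% limits of 0.08 and 0.66. The limma test gave an adjusted p of 0.9973. It was 0.45 within the arrays numbered 1 and 0.29 within those numbered 2, and leaving out an array gave 0.29 to 0.45. Cyp2s1 had a single probe set, so the array holds no second measurement of it.

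Other CYP2 genes moved less. Cyp2a12, a steroid-hydroxylating P450 of mouse liver, measured 6.03 and 6.14 with TCDD and 6.26 and 6.27 with DMSO, a difference of -0.18, and Cyp2c29 differed by -0.21 at a lower signal. Both TCDD arrays were below both DMSO arrays in this pair. Cyp2c38, an arachidonic acid metabolising P450, differed by 0.095 with overlapping groups. The 5 measured CYP3 genes, relatives of the main human drug-metabolising P450, ran from -0.225 for Cyp3a13 to 0.055. Cyp3a13 measured 4.16 and 4.18 against 4.39 and 4.40, a narrow spread within each group at a signal near the low end. The 10 CYP4 genes, which hydroxylate fatty acids and leukotrienes, ran from -0.13 to 0.13. Cyp4f13 was at 6.40 and 6.72 with TCDD and 6.65 and 6.28 with DMSO, which gave -0.25 within number 1 and 0.44 within number 2.

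P450s with fixed substrates in the body's own metabolism were described separately. Among the 7 sterol and bile acid genes both TCDD arrays were higher for 2, Cyp39a1 and Cyp7b1, and lower for 0. Among all genes 12.9% were higher and 12% lower. Both genes had low signal, with means of 4.52 and 4.18, and differed by 0.035 and 0.22. The other probe set of Cyp7b1 differed by 0.0 with overlapping groups. Cyp27a1, the mitochondrial sterol hydroxylase that starts the acidic pathway of bile acid synthesis, differed by -0.01 between treatments, and Cyp51, the lanosterol demethylase of cholesterol synthesis, by -0.085. The 4 steroid hormone genes had a median of 0.04. Cyp21a1, the adrenal steroid hydroxylase, measured 6.57 and 6.66 with TCDD and 6.71 and 6.84 with DMSO, a difference of -0.16, and its other probe set differed by 0.05. The 3 genes for inactivating or activating vitamin D and retinoic acid all had positive differences, as did 6563 of all 12393 genes. The vitamin D genes Cyp24a1 and Cyp27b1 differed by 0.17 and 0.115, with both TCDD arrays above both DMSO arrays. Cyp26a1, which degrades retinoic acid, measured 6.82 and 7.15 against 6.80 and 6.88, a difference of 0.145 with overlapping groups. The other probe set of Cyp24a1 differed by -0.135, with both TCDD arrays below both DMSO arrays.

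The largest differences on both sides among the brighter enzyme genes, apart from Cyp2s1, were in mitochondrial aldehyde dehydrogenases. Aldh18a1, which encodes the synthase that starts proline synthesis from glutamate, had the lowest difference of the 118 genes. It measured 6.56 and 6.86 with TCDD (replicates 1 and 2) and 6.92 and 7.36 with DMSO. Both TCDD arrays were lower, and within each number the TCDD array was lower too, by -0.36 and -0.50. The difference of -0.43 had limits of -0.95 and 0.09 (limma, Benjamini-Hochberg adjusted p = 0.9973). Leaving out single arrays gave values between -0.65 and -0.21, nearest 0 without DMSO replicate 2. With the replicate number as a block its limits left out 0 before the adjustment but not after it (limma adjusted p = 0.9942).

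The 5 probe sets of Aldh18a1 did not give a single value. The other bright one measured 5.62 and 6.67 with TCDD and 6.97 and 7.89 with DMSO, a difference of -1.285 (95% limits -2.50 and -0.07; limma adjusted p = 0.9973). The 3 dimmer ones differed by -0.16, -0.18 and 0.005, and of these only the one at -0.16 had groups that did not overlap. All except the probe set at 0.005 had negative differences. Both bright probe sets carry the name suffix that marks possible cross hybridisation, and the gene is represented by the dim one at -0.16 without such probe sets. Aldh4a1, which encodes the dehydrogenase of proline breakdown, measured 6.46 and 6.67 against 6.58 and 6.82, a difference of -0.135 with overlapping groups.

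Aldh2, the main mitochondrial enzyme for acetaldehyde, measured 7.31 and 7.17 with TCDD and 7.11 and 6.68 with DMSO. Both TCDD arrays exceeded both DMSO arrays, and most of the gap came from DMSO replicate 2. The difference of 0.345 had limits of -0.12 and 0.81 and was 0.13 without that array. Its other bright probe set differed by 0.275, with the same low value in DMSO replicate 2 (6.67), and its dim probe set by -0.14. DMSO replicate 2 was also the array with the high S100a8 and S100a9 and the lowest dendritic cell marker level given above, and their part in the Aldh2 value was not tested. The paralogue Aldh1b1 differed by 0.095.

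**Figure D2:**
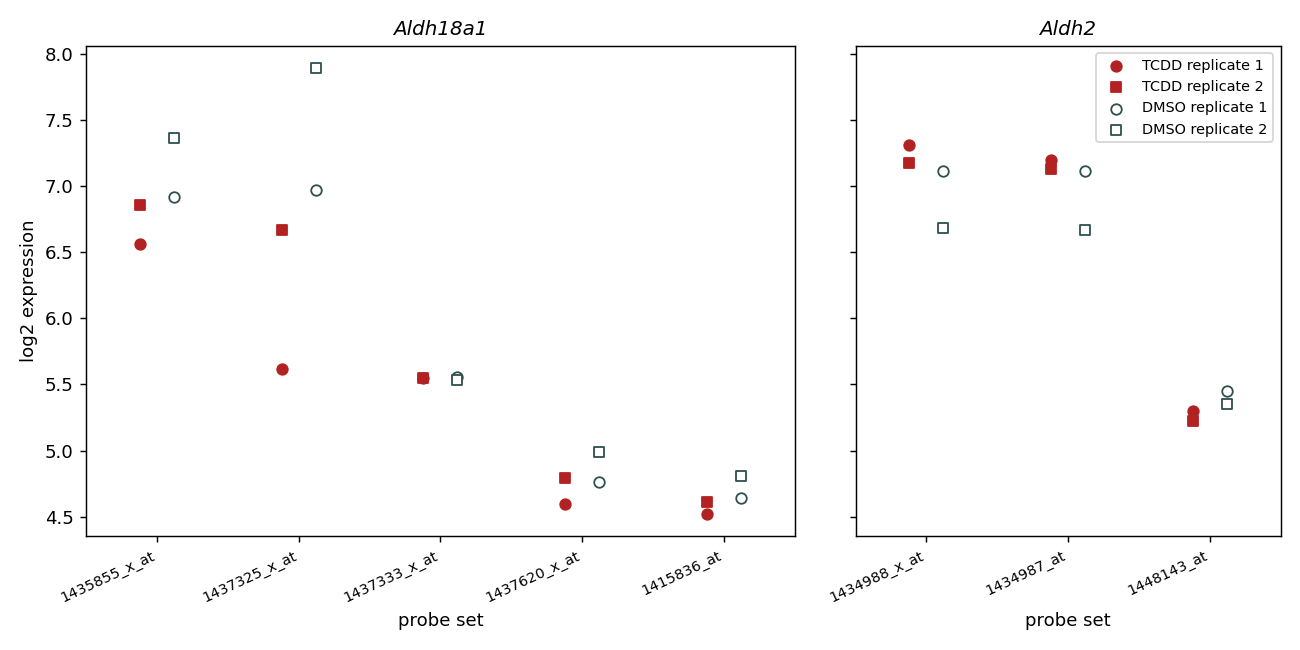
Log2 expression (vertical axis) in each of the 4 arrays for every probe set of Aldh18a1 (left) and Aldh2 (right), ordered by mean signal. Circles are arrays numbered 1 and squares those numbered 2, filled for TCDD and open for DMSO. The 2 brightest probe sets of Aldh18a1 differ by -0.43 and -1.285 while the third is flat at 0.005, and DMSO replicate 2 is the low array in both bright probe sets of Aldh2.

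Among the other aldehyde dehydrogenases Aldh9a1, an enzyme of carnitine synthesis, measured 9.50 and 9.81 with TCDD and 9.75 and 9.49 with DMSO, a difference of 0.035. Its other probe set, also above the median, differed by -0.215, so its sign rests on the choice of probe set. Aldh16a1 measured 7.75 and 7.70 against 7.77 and 7.67, a difference of 0.005 with overlapping groups. The 4 ALDH1A genes, whose family makes retinoic acid from retinaldehyde, were all below the median signal. Aldh1a3 at 0.14 and Aldh1a7 at 0.115 had both TCDD arrays higher, Aldh1a1 at -0.165 had both lower, and Aldh1a2 at 0.195 had overlapping groups. Among all genes below the median 15.6% were higher and 10.8% lower. The other probe sets of Aldh1a3 differed by 0.16 with overlapping groups and by -0.075 with both TCDD arrays lower. The 3 ALDH3 genes lay between -0.03 and 0.01.

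**Figure D3:**
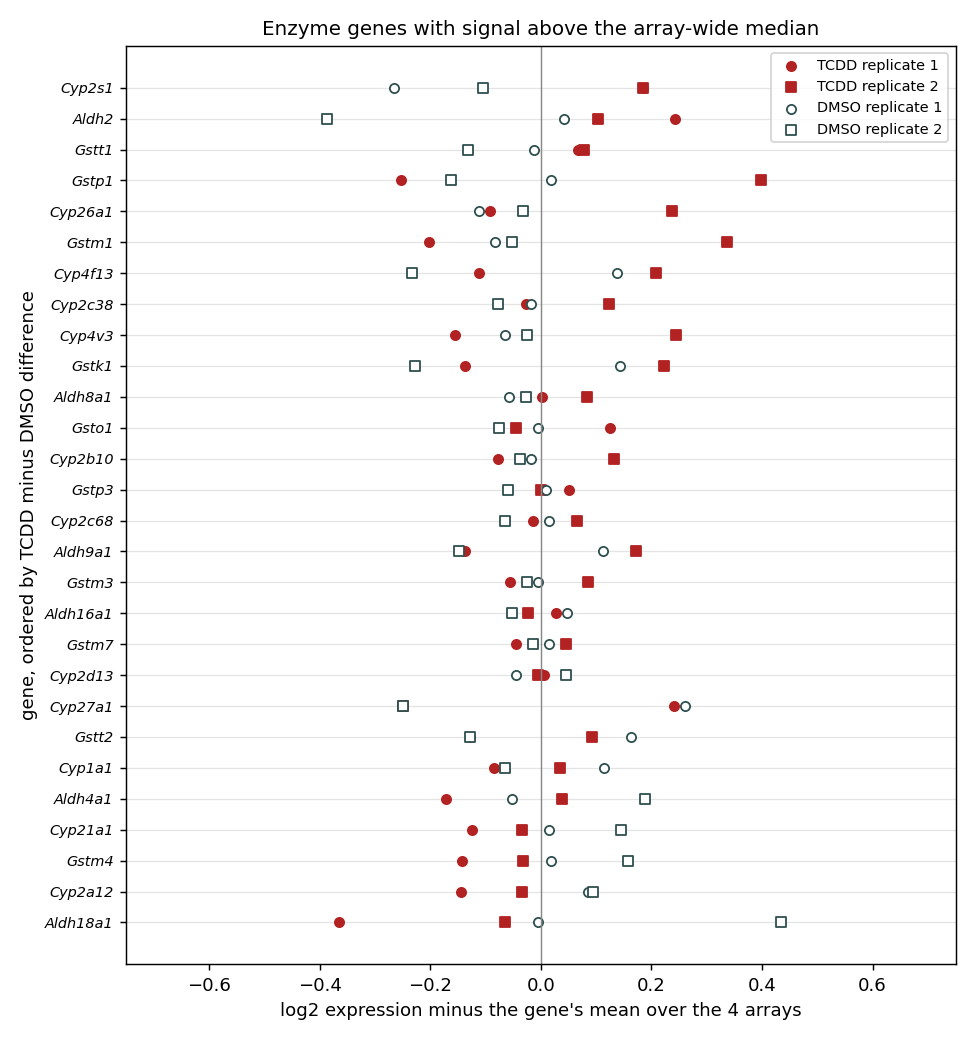
The 28 enzyme genes with a mean signal above 6.01, each shown as its log2 value in the 4 arrays minus the gene's own mean (horizontal axis), ordered from the highest TCDD minus DMSO difference (Cyp2s1, 0.37) to the lowest (Aldh18a1, -0.43). Circles are arrays numbered 1 and squares those numbered 2, filled for TCDD and open for DMSO; the groups overlap for 20 of the 28 genes, and markers coincide where arrays had equal values, as in Cyp2s1 and Cyp27a1.

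Glutathione S-transferases conjugate electrophiles to glutathione, and 10 of the 18 measured were above the median signal. Both TCDD arrays were higher for 2, Gsta3 and Gstt1, and lower for 2, Gstm4 and Gstm6, and the groups overlapped for 14. Among all genes 12.9% were higher and 12% lower. Gsta3 had a mean signal of 4.28, near the low end, and its other probe set differed by -0.035. Gstp1, the pi class enzyme, measured 9.69 and 10.34 with TCDD (replicates 1 and 2) and 9.96 and 9.78 with DMSO. The TCDD arrays were thus the lowest and the highest of the 4, and the difference of 0.145 was made of -0.27 within number 1 and 0.56 within number 2. Gstp3, of the same class, differed by 0.05, at 7.30 and 7.25 against 7.26 and 7.19. Probe sets of paralogues can share target, so values of genes in 1 class may not be fully separate.

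The mu class showed the same pattern in 1 gene. Gstm1 measured 6.07 and 6.61 with TCDD and 6.19 and 6.22 with DMSO, a difference of 0.135 that rests on TCDD replicate 2 and was -0.135 without it. Its other probe sets differed by 0.11, 0.085 and -0.10. Gstm4 was at 5.95 and 6.06 against 6.11 and 6.25, with both TCDD arrays lower and a difference of -0.175. Gstm3 differed by 0.03, and its dimmer probe set by -0.04. In the theta class Gstt1 measured 6.21 and 6.22 against 6.13 and 6.01, a difference of 0.145 with limits of -0.13 and 0.42. Gstt2 differed by -0.035 with overlapping groups.

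All 9 Ugt and 11 Sult genes had signals below the median. Of the Ugt genes, which attach sugars, both TCDD arrays were higher for Ugt3a1 and lower for Ugt3a2. Ugt3a1 measured 5.57 and 5.68 against 5.51 and 5.31, a difference of 0.215, and its other probe set differed by 0.13. Ugt3a2 differed by -0.06 and Ugt8a, which makes galactosylceramide, by 0.085. Of the sulfotransferases both TCDD arrays were higher for 4 (Sult1a1, Sult2a2, Sult2b1 and Sult4a1) and lower for 1, Sult1e1, where 15.6% and 10.8% of all genes below the median were higher and lower. Sult1a1, the phenol sulfotransferase, measured 5.77 and 5.62 with TCDD and 5.37 and 5.35 with DMSO, with no overlap. Its difference of 0.335, or 1.26-fold, had limits of 0.05 and 0.62 (limma adjusted p = 0.9973) and was 0.40 and 0.27 within the numbers. It had no other probe set. Sult1c2 and Sult5a1 differed by 0.05 and 0.10 with overlapping groups.

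The enzyme genes varied more between the arrays of a treatment than between treatments of number 1. Over the 118 genes the SD of the log2 differences was 0.16 within each treatment. Across treatments it was 0.13 for the arrays numbered 1 and 0.175 for those numbered 2. Over all genes it was 0.35 within TCDD and 0.30 within DMSO, and 0.21 and 0.32 across treatments for numbers 1 and 2. Within number 1 the TCDD array was the lower one for 70 enzyme genes and the higher one for 44. Within number 2 it was the higher one for 81 and the lower one for 34. The direction within the numbers was opposite for 59 genes (50%), beside 52.7% of all genes, and positive in both for 31 (26.3%, beside 22.6%). The median differences within numbers 1 and 2 were -0.03 and 0.09, beside -0.03 and 0.05 over all genes, so the positive median came from the arrays numbered 2. Without TCDD replicate 2 the median difference of the 118 genes was -0.035, and without TCDD replicate 1 it was 0.085.

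**Figure D4:**
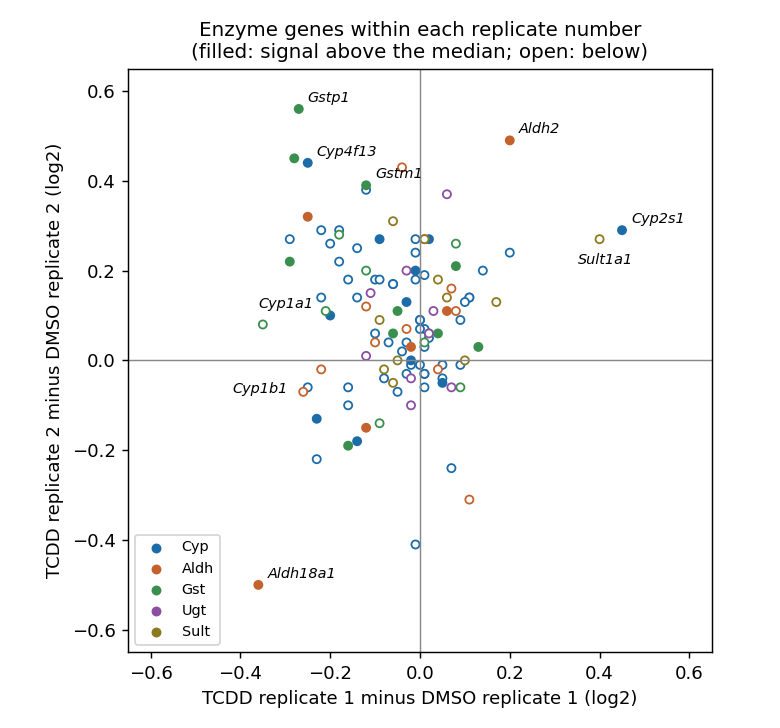
Difference between TCDD and DMSO within the arrays numbered 1 (horizontal axis, log2) against that within the arrays numbered 2 (vertical axis, log2) for the 118 enzyme genes, coloured by family and filled where the signal was above 6.01. Cyp2s1, Sult1a1 and Aldh2 are positive within both numbers and Aldh18a1 negative within both, while Gstp1, Gstm1 and Cyp4f13 lie in the upper left with opposite signs.

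The enzyme genes separated by replicate number about as often as other genes, or less. Both arrays numbered 1 lay above both numbered 2 for 12 of the 118, where 14% of all genes did so, and below for 25, where 22.4% of all genes did. Cyp27a1 had the largest difference between the numbers, 0.50, at 6.61 and 6.63 in the TCDD and DMSO arrays numbered 1 against 6.12 in each array numbered 2. Cyp51 at 0.335, Gstm1 at -0.285 and Aldh1b1 at -0.245 were also separated by number, with overlapping treatment groups. Aldh18a1 at -0.37 and Aldh2 at 0.285 were not: their numbers overlapped, and their differences between treatments were larger. Cell type markers were separated by number in both directions. Of 5 dendritic cell genes 2 were higher and 0 lower in both arrays numbered 1, of 8 B cell genes 3 higher and 3 lower, of 8 monocyte and macrophage genes 0 and 3, and of 7 neutrophil genes 0 and 6. Within the B cell list Cd74 measured 9.04 and 8.98 in the arrays numbered 1 against 8.06 and 6.98 in those numbered 2, and Cd79b went the other way, at 6.22 and 6.30 against 7.09 and 6.41. The part of other cells in the Cyp27a1 values was not tested.

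The genes that serve these enzymes were read from 7 lists with 104 entries, of which 89 were measured, and limma called 0 of them. The counts of genes with both TCDD arrays higher or lower stand beside shares of 12.9% and 12% among all genes. Of 6 measured genes for AHR and its partners, 0 had groups that did not overlap. Tiparp, an AHR target and feedback repressor, measured 10.21 and 8.18 with TCDD and 9.06 and 7.78 with DMSO. Its difference of 0.775 was made of 1.15 within number 1 and 0.40 within number 2. The difference was -0.24 without TCDD replicate 1, 0.34 over the mean of its probe sets and 0.075 without possibly cross-hybridising ones. The chaperone gene Hsp90aa1 differed by -0.335, with overlapping groups. Of 14 genes for xenobiotic receptors and the NRF2 system, 1 had both TCDD arrays higher and 1, Nfe2l2, both lower. Nfe2l2, which encodes NRF2, measured 5.54 and 5.38 with TCDD and 6.14 and 6.80 with DMSO, below the median signal in the mean. Its difference was -1.01 (95% limits -1.64 and -0.38; limma adjusted p = 0.9973), made of -0.60 and -1.42 within the numbers. The small MAF partners Maff and Mafk differed by 0.67 and 0.315 with overlapping groups, and Maff measured 9.38 and 8.22 in the arrays numbered 1 against 6.08 and 5.90 in those numbered 2. Electron donors of P450 went both ways: Cyb5r3, the reductase of cytochrome b5, differed by 0.375 (8.28 and 8.18 against 7.97 and 7.74) but by 0.185 over the mean of its probe sets and 0.055 without possibly cross-hybridising ones. Fdx1, which feeds mitochondrial P450s, differed by -0.385 (7.53 and 7.57 against 7.69 and 8.18).

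Of 28 other phase I enzymes both TCDD arrays were higher for 2 and lower for 7. Adh5, the glutathione-dependent formaldehyde dehydrogenase, measured 9.06 and 9.11 against 9.46 and 9.69, a difference of -0.49 with limits of -0.82 and -0.16 (limma adjusted p = 0.9973), and the aldehyde reductase gene Akr1a1 differed by 0.23 (0.11 over the mean of its probe sets). Of 16 other conjugation enzymes 3 were higher and 3 lower, with the leukotriene synthase gene Ltc4s at 0.15 and Ugp2, which makes UDP-glucose, at -0.12 (0.019 over the mean of its probe sets). Of 10 genes of glutathione synthesis and recycling 2 were higher and 3 lower. Ggct, of the glutathione cycle, differed by -0.38 (6.62 and 6.51 against 6.87 and 7.02), but by -0.145 over the mean of its probe sets and 0.09 without possibly cross-hybridising ones. Gpx1, a glutathione peroxidase, differed by -0.46. Of 11 transporters 1 was higher and 2 lower, with the uptake carrier gene Slco3a1 at 0.185 and the efflux pump gene Abcc1 at 0.16. Over the mean of their probe sets these were 0.04 and 0.075. List medians lay between -0.045 and 0.045, beside 0.01 over all genes.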

How the data were processed

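Gene expression was measured on 4 Affymetrix arrays, 2 per treatment. The deposited table holds 1 log2 value per probe set and array, made by the authors with RMA per the submitters' processing notes (RMA version: not given in the sources used). That the scale is log2 follows from the range of the numbers. RMA as usually run normalises the arrays and compresses differences at low signal. No counts or depths exist for arrays, and their number limits the precision.

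Of 22690 probe sets 64 controls were left out. Genes were named from the platform annotation (20380 probe sets with 1 symbol, 691 with several, 1555 unnamed here). Entrez identifiers linked the symbols to RefSeq's gene table (GRCm38.p6), which changed 0 of the enzyme names. All 22626 probe sets were fitted with limma 3.58.1 in R 4.3.3 (lmFit, eBayes, no covariate, no filter), checked on simulated data, with Benjamini-Hochberg adjustment. Summaries over genes use 1 probe set per gene. With 2 arrays a group, the smallest two-sided p an exact permutation test allows is 0.3333.

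The enzyme genes, the lists and the tests were chosen with earlier results of these data known. Named were the AHR targets of these families, the 8 highest and 8 lowest differences above the median signal, the 3 brightest genes of each family, the 6 largest differences between replicate numbers, and 2 genes from each related list. Other genes named were chosen after their values were seen. Same-numbered arrays had deviations from their group means that correlated at 0.23 over all probe sets. With 2 pairs and no label this does not establish a pairing, so the block is an alternative. The other alternatives were centring, a second quantile normalisation, signal filters, a variance trend, array weights, removal of possibly cross-hybridising probe sets, gene means and each array left out. The removal took out every probe set with a letter suffix in its name. This includes the suffix a, as for Ugt8a, which need not mark cross hybridisation.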

Additional observations from a re-analysis of the deposited data

How the results depend on the processing

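No alternative called an enzyme gene, and the lowest adjusted limma p among them was 0.7954, without TCDD replicate 1. The replicate block also called 0 enzyme genes (lowest adjusted p = 0.9942). With it 3 genes had an unadjusted p under 0.05, against 2 without. The median difference stayed between 0.02 and 0.05 except as arrays were left out, when it ran from -0.035 to 0.085. The counts of genes with both TCDD arrays higher (16 to 24) or lower (13 to 15), recomputed as alternatives added after seeing the data, ran from 32 to 68 and from 23 to 43 as arrays were left out, where fewer arrays separate more easily. Of the named genes' values under the other alternatives 385 kept their sign and 7 did not. The signal filters, variance trend and replicate block cannot change a difference, so much of this count was fixed in advance. The 7 came from removal of possibly cross-hybridising probe sets and from gene means. Values within rounding of 0 were not counted as changed. Without possibly cross-hybridising probe sets Gstm3 was at -0.04, Ugt8a at -0.035 and Ggct at 0.09. Cyp1a1 and Sult1a1, among others, had no value there, because their only probe set was removed. For gene means Aldh9a1 was at -0.09, Gstm3 at -0.005, Cyp51 at 0.0133 and Ugp2 at 0.019. As arrays were left out 22 named genes changed sign. Ranges were, for Cyp1a1 from -0.14 to 0.04, for Aldh3a1 from -0.095 to 0.035, for Gsta2 from -0.05 to 0.1, for Gstp1 from -0.18 to 0.47, for Cyp26a1 from -0.02 to 0.31, for Gstm1 from -0.135 to 0.405. Those of other genes were, for Cyp4f13 from -0.09 to 0.28, for Gstt2 from -0.18 to 0.11, for Cyp27a1 from -0.265 to 0.245, for Aldh9a1 from -0.12 to 0.19, for Aldh16a1 from -0.045 to 0.055, for Gstm3 from -0.04 to 0.1. Next, values ran for Ugt8a from -0.015 to 0.185, for Sult1c2 from -0.035 to 0.135, for Cyp51 from -0.33 to 0.16, for Aldh1b1 from -0.035 to 0.225, for Tiparp from -0.24 to 1.79, for Hsp90aa1 from -0.76 to 0.09. Last, they ran for Maff from -0.98 to 2.32, for Mafk from -0.315 to 0.945, for Ugp2 from -0.37 to 0.13, for Abcc1 from -0.045 to 0.365.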
